A study of Homo sapiens with 2 samples.

Results

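Blood cells that carried transcripts of KCNK17, a potassium channel gene, together with RUNX1 and ITGA2B were examined in 2 blood-generating heart-forming organoids (BG-HFOs) on day 14. A cell was taken when its barcode held 500 to 9000 genes, under 15% mitochondrial counts, at least 1 unique molecular identifier (UMI, 1 captured transcript molecule) each of KCNK17, RUNX1 and ITGA2B, none of CDH5 and at most 3 of MYH6. It also had to hold under 5000 UMIs of PF4 and under 10000 of HBZ per 1000000 of its own total. These limits set aside the cells richest in either transcript. The rule was met by 377 of 36814 barcodes: 97 in organoid 32.7, or 0.621% of the 15632 barcodes inside the gene and mitochondrial limits (exact 95% binomial interval 0.504 to 0.757%), and 280 in organoid 33.10, or 1.465% of 19117 (1.299 to 1.645%). These 377 are called KCNK17+ cells below. Their levels of the 7 genes in the rule chose them and are given as a description.

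The organoids were derived from the human embryonic stem cell line hES3 NKX2.5-eGFP, in which a fluorescent reporter marks a cardiac transcription factor. Stem cell aggregates were embedded in Matrigel and taken through 2 phases of WNT modulation with cytokines and growth factors that drive endothelium and blood. Each organoid was dissociated on its own and gave 1 droplet library, so the organoids are replicates of 1 condition, and every comparison below is between groups of cells within them. Both come from 1 line, and no untreated or control organoid was analysed here.

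KCNK17 encodes a tandem pore domain potassium channel, a family of background channels that help to set the resting membrane potential. RUNX1 is required for blood cells to arise from endothelium and is kept in their progeny, and ITGA2B encodes CD41, an integrin chain of early blood progenitors, megakaryocytes and platelets. A megakaryocyte-erythroid progenitor is defined by what its progeny become: platelets by way of megakaryocytes, in which GATA1 works with FLI1, and red cells, in which GATA1 works with KLF1. SPI1 (PU.1) drives the granulocyte and monocyte branch, and GATA1 and SPI1 can each repress the other's targets. PF4 is a platelet chemokine and HBZ the embryonic alpha-type globin. On GRCh38, the GENCODE annotation places KCNK17 at chr6:39299001-39314461, ITGA2B at chr17:44372180-44389649 and RUNX1 at chr21:34787801-36004667, all on the minus strand, and GATA1 at chrX:48786540-48794311 on the plus strand.

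4 other groups from the same organoids served for comparison. KCNK17-zero counterparts met the same rule with no KCNK17 UMI (408 and 1022 cells in organoids 32.7 and 33.10, the order of every pair of values below). PF4-high cells reached the PF4 limit below the HBZ limit (787 and 2329), and HBZ-high cells reached the HBZ limit below the PF4 limit (818 and 1811); neither group had to hold KCNK17, RUNX1 or ITGA2B. Cardiomyocytes, with at least 10 UMIs each of MYH6 and TNNT2 and none of CDH5 (1059 and 1313), show what free RNA in the droplets adds to a cell that should lack blood genes. Libraries held 191152562 and 233818881 UMIs, and 100 barcode sequences occurred in both. The KCNK17+ cells were the deepest of these groups, with medians of 20217 and 17570 UMIs per cell against 12230 and 10862 in the counterparts, 7019 and 6810 in PF4-high cells, 12038 and 9650 in HBZ-high cells and 13703 and 14621 in cardiomyocytes. Levels are counts per 1000000 UMIs of a group's sum (CPM; 2173849 and 5512013 UMIs in the KCNK17+ cells).

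KCNK17 was sparse in the cells it chose. The median was 2 UMIs per cell in both organoids, the highest cells held 11 and 19, and 45 of 97 and 122 of 280 cells held a single UMI. As a summed level KCNK17 stood at 111 and 134 CPM in the KCNK17+ cells. It stood at 25.8 and 19.5 in PF4-high cells, 1.20 and 1.64 in HBZ-high cells and 1.77 and 2.68 in cardiomyocytes, so HBZ-high cells did not exceed the background. The KCNK17+ cells held 20.4% and 40.2% of all KCNK17 UMIs of their libraries, PF4-high cells 16.4% and 22.3%, and HBZ-high cells 1.26% and 2.01%. Barcodes outside these groups, the CDH5+ RUNX1+ cells and the cardiomyocytes held 55.3% and 23.5%, the largest share in organoid 32.7. Among cells that met all other terms, the PF4 limit set aside 74 and 189 cells, and the HBZ limit 4 and 13. PF4 values ran up to 4740 and 4981 CPM just inside that limit and began at 5069 and 5008 just outside it, whereas HBZ ran up to 3438 and 7099 inside and began at 14840 and 10680 outside. The PF4 limit thus cut through a continuous range of KCNK17+ cells.

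**Figure D1:**
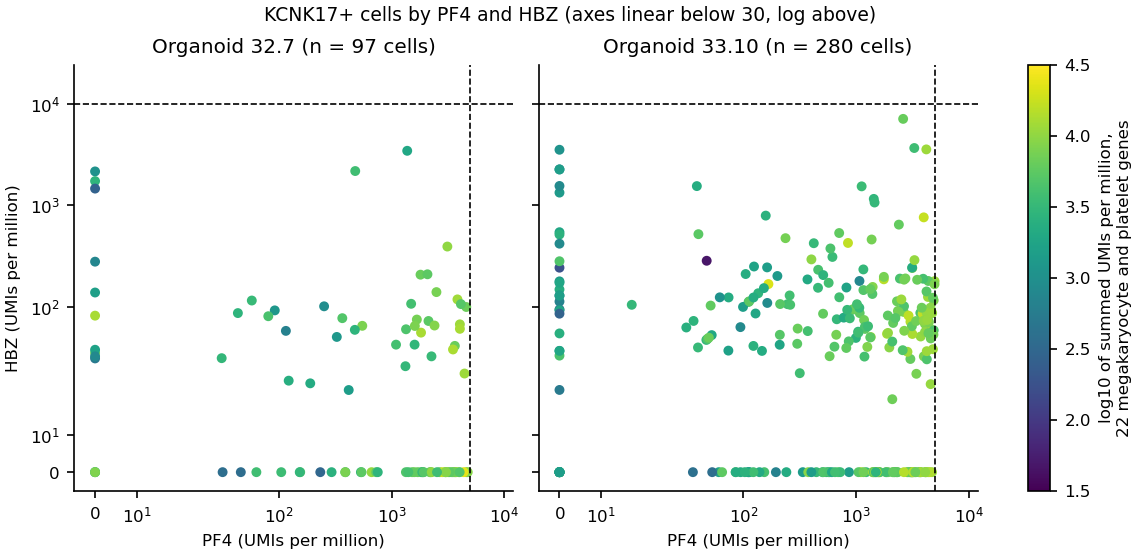
Each point is 1 KCNK17+ cell of organoid 32.7 (97 cells) or 33.10 (280 cells), placed by its PF4 (x axis) and HBZ (y axis) level, both in CPM, on axes that are linear near 0 and logarithmic above; dashed lines are the limits of 5000 and 10000, and colour is the log10 of the summed level of 22 megakaryocyte and platelet genes. Cells lie along the whole PF4 range up to its limit, while most hold little or no HBZ.

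Defining erythroid genes were low in the KCNK17+ cells, which is a description, since the HBZ limit keeps out cells rich in globin. For these genes cardiomyocytes, which had no such limit, held more HBZ (1599 and 2345 CPM) than the KCNK17+ cells (104 and 222), and 18.7% and 27.0% of them had high doublet scores. Cells with SPI1 and PTPRC (CD45) UMIs but no ITGA2B, under the same limits (762 and 319 cells, median 15525 and 14282 UMIs), therefore served as a second group outside the erythroid branch. KLF1, the erythroid master regulator, stood at 16.6 and 21.4 CPM in the KCNK17+ cells, 8.06 and 14.6 in cardiomyocytes, 1.14 and 2.40 in the SPI1+ PTPRC+ cells and 219 and 208 in HBZ-high cells. AHSP, the chaperone of alpha globin, stood at 1.84 and 2.72, below the 20.5 and 38.9 of cardiomyocytes and near the 1.79 and 2.77 of the SPI1+ PTPRC+ cells. SLC4A1, the band 3 anion exchanger of red cells, stood at 0 and 3.08 against 2.75 and 6.21 in cardiomyocytes and 0.429 and 2.03 in the SPI1+ PTPRC+ cells. The embryonic globin HBE1 (550 and 1372) was near the cardiomyocyte levels (603 and 1324) but above the SPI1+ PTPRC+ cells (68.6 and 170). KLF1 and HBE1 were thus higher than in the SPI1+ PTPRC+ cells in both organoids. Of early erythroid or shared membrane genes, some lay above the cardiomyocytes: the glycophorin GYPB at 230 and 305 against 39.1 and 84.0, the Rh-associated glycoprotein RHAG at 197 and 210 against 13.8 and 41.3, and the minor adult globin HBD at 760 and 859 against 24.2 and 83.2. RHAG was higher still in PF4-high cells (373 and 301), so it did not set the erythroid branch apart here. Thinned to 5000 UMIs per cell (94 and 267 cells, with 3 and 13 shallower cells left out), 14.9% and 9.36% of the KCNK17+ cells held a UMI of KLF1, AHSP or SLC4A1, against 4.51% and 7.17% of cardiomyocytes, 1.59% and 2.86% of the SPI1+ PTPRC+ cells and 90.3% and 86.0% of HBZ-high cells; unthinned, the first share was 27.8% in organoid 32.7. The summed level of all 23 erythroid genes was 6526 and 8956 CPM, of which HBG2 made up 3068 and 4219, against 3077 and 6652 in cardiomyocytes, 572 and 1123 in the SPI1+ PTPRC+ cells, 7479 and 13070 in the counterparts, 27500 and 28450 in PF4-high cells and 68260 and 70260 in HBZ-high cells. The KCNK17+ cells thus held the least of the 4 groups compared by a test below. Of receptors that mark progenitors, KIT stood at 3.68 and 2.72 against 0.244 and 1.83 in cardiomyocytes and 3.53 and 3.06 in HBZ-high cells, and EPOR at 27.1 and 20.0 against 20.6 and 21.9 in cardiomyocytes.

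Many megakaryocyte genes were at an intermediate level in the KCNK17+ cells. GP9, a chain of the von Willebrand factor receptor of platelets, stood at 281 and 282 CPM in the KCNK17+ cells, 860 and 744 in PF4-high cells, 142 and 143 in the counterparts and 18.5 and 50.6 in cardiomyocytes. ITGB3, the beta chain that pairs with ITGA2B, stood at 183 and 227 against 473 and 490 in PF4-high cells and 17.3 and 42.2 in cardiomyocytes. PLEK, a substrate of protein kinase C in platelets, stood at 1095 and 1182 against 42.9 and 124 in cardiomyocytes. For these the groups kept 1 order in both organoids: PF4-high cells, KCNK17+ cells, counterparts, cardiomyocytes. That order held for 14 of the 22 megakaryocyte and platelet genes and not for 8. Its share among all genes was not counted, and the PF4 limit bears on its upper end, so these counts are a description. The platelet receptor CLEC1B (42.3 and 43.9 against 49.2 and 80.8) and the tetraspanin CD9 (66.7 and 34.8 against 74.4 and 63.4) were below the counterparts, LTBP1, which binds latent TGF-beta (478 and 526), was below cardiomyocytes (588 and 701), and VWF, von Willebrand factor, stood at 0 and 1.09. Genes of late platelet granules and cytoskeleton lay further below the PF4-high cells: PPBP, a platelet chemokine, stood at 1104 and 786 against 13340 and 11060, and TUBB1, the tubulin of the platelet marginal band, at 100 and 118 against 692 and 616. PPBP in the KCNK17+ cells of organoid 33.10 was near the 684 of its cardiomyocytes and below the 1035 of its counterparts. At 5000 UMIs, 74.5% and 77.2% of the KCNK17+ cells held a UMI of GP9 or ITGB3, against 95.8% and 94.7% of PF4-high cells, 46.4% and 52.6% of the counterparts, 4.84% and 6.80% of HBZ-high cells and 10.8% and 15.9% of cardiomyocytes. The name megakaryocyte-erythroid progenitor could not be checked with these genes, since the PF4 and HBZ limits and the ITGA2B minimum bear on both branches, and the cells are called by their rule.

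**Figure D2:**
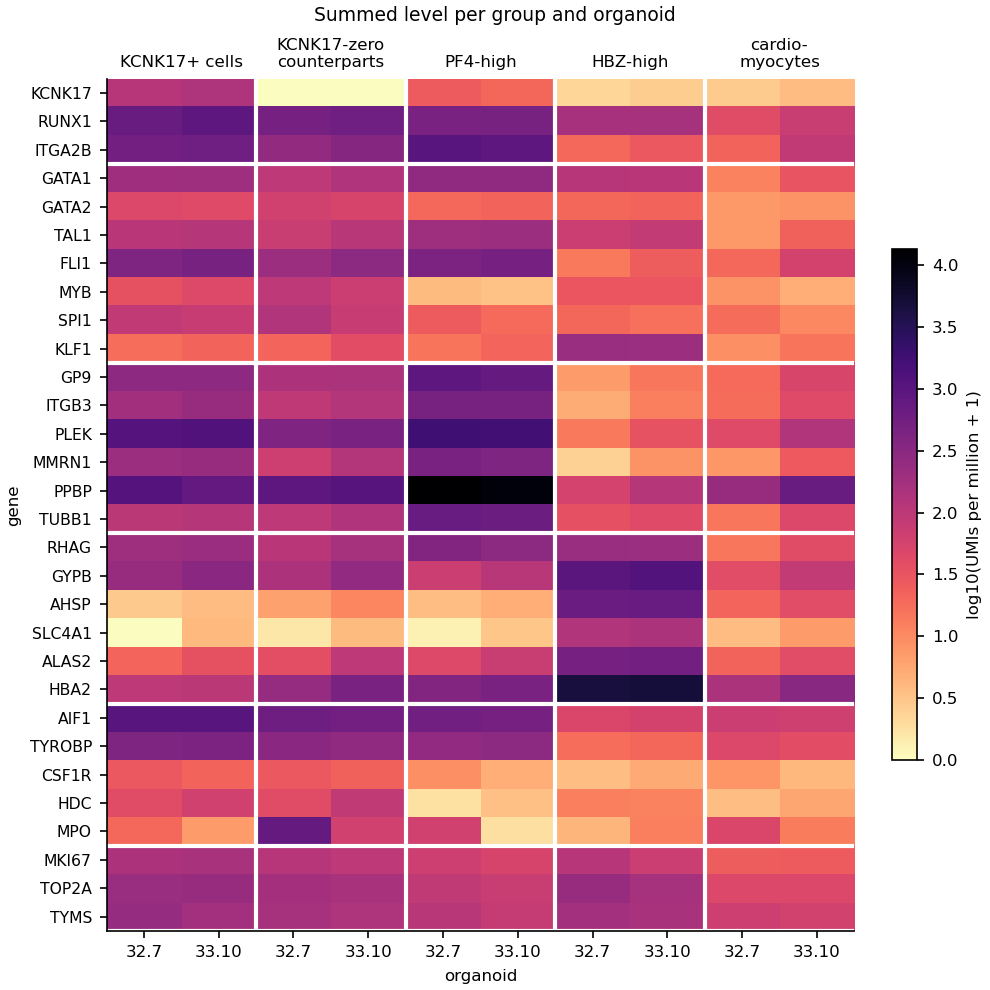
Colour gives log10 of the summed level plus 1 (CPM) of 30 genes (rows) in 5 groups of cells from organoids 32.7 and 33.10 (columns), with white lines between gene groups. GP9, ITGB3 and PLEK in the KCNK17+ columns lie between PF4-high cells and counterparts, MYB and SPI1 are above PF4-high cells, and their AHSP and SLC4A1 are at or below the cardiomyocyte columns.

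Regulators of several branches were present together. GATA1 stood at 188 and 195 CPM in the KCNK17+ cells, between PF4-high cells (280 and 278) and HBZ-high cells (112 and 105), and far above cardiomyocytes (10.8 and 30.8). FLI1, which drives megakaryocyte genes, stood at 416 and 473 against 13.1 and 24.9 in HBZ-high cells. GATA2, which is expressed in stem and early progenitor cells, stood at 46.0 and 41.9 against 18.5 and 21.0 in PF4-high cells and 19.4 and 21.3 in HBZ-high cells. MYB, a regulator of definitive progenitors, stood at 33.1 and 43.7, near HBZ-high cells (30.3 and 29.9), whereas PF4-high cells (2.91 and 2.38) were below the cardiomyocyte background (7.39 and 4.11). SPI1 stood at 87.9 and 77.3 against 26.0 and 18.2 in PF4-high cells, 19.5 and 15.9 in HBZ-high cells and 17.2 and 9.57 in cardiomyocytes. No value of the KCNK17+ cells overlapped the PF4-high or HBZ-high values for GATA1, GATA2 or SPI1. The share of all genes separated in this way was not counted, so this is a description. In the counterparts GATA1 was lower than in the KCNK17+ cells in both organoids, and GATA2 was higher in both. SPI1 there was higher in organoid 32.7 and nearly equal in organoid 33.10.

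GATA1 and SPI1 were often found in the same cell. At 5000 UMIs, 58.5% and 58.4% of the KCNK17+ cells held a GATA1 UMI (exact 95% interval 47.9 to 68.6% in organoid 32.7) and 31.9% and 36.0% held an SPI1 UMI. Both were found in 17.0% and 23.2%, against 5.45% and 5.49% of PF4-high cells, 2.76% and 3.62% of HBZ-high cells, 10.8% and 10.2% of the counterparts and 0.32% and 0.73% of cardiomyocytes. Unthinned, both were found in 55.7% and 56.1%. The share with both also depends on the share with each gene, and no expected share was computed for any group. Within the KCNK17+ cells the levels of GATA1 and SPI1 (CPM) were nearly unrelated across cells of 1 library (Spearman rho 0.0405 over 97 cells and 0.0828 over 280 cells, as a description of sparse counts). With 2 organoids a group, no permutation test of these shares can go below p = 0.333, so the shares are given with counting intervals only, which do not cover the variation between organoids.

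Transcripts shared with granulocytes and monocytes ran through the KCNK17+ cells, while genes of mature cells varied. AIF1, an actin-binding protein of the monocyte line, stood at 1030 and 1028 CPM against 550 and 493 in PF4-high cells, 48.9 and 56.1 in HBZ-high cells and 71.3 and 64.2 in cardiomyocytes, and 93.6% and 93.3% of KCNK17+ cells held an AIF1 UMI at 5000 UMIs. TYROBP, an immune signalling adaptor, stood at 422 and 435 against 44.7 and 38.3 in cardiomyocytes, and LST1, a myeloid membrane protein, at 190 and 188 against 27.2 and 13.9. By contrast MPO, the peroxidase of granulocyte granules, stood at 18.9 and 6.17, below the 49.9 and 12.0 of cardiomyocytes, and ELANE, neutrophil elastase, at 0 in both organoids (0 UMIs allow up to 1.38 and 0.544 CPM, 3 UMIs of each total). CD14, the monocyte receptor for lipopolysaccharide, stood at 51.5 and 0.726 against 8.49 and 3.58 in cardiomyocytes, and C1QA, a complement gene of macrophages, at 79.6 and 9.25 against 15.6 and 1.48, so CD14 in organoid 32.7 and C1QA in both exceeded that background. The 18 genes of this list summed to 2461 and 2229 CPM in the KCNK17+ cells, of which AIF1 was the highest, with 2 genes at 0, against 483 and 225 in cardiomyocytes.

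**Figure D3:**
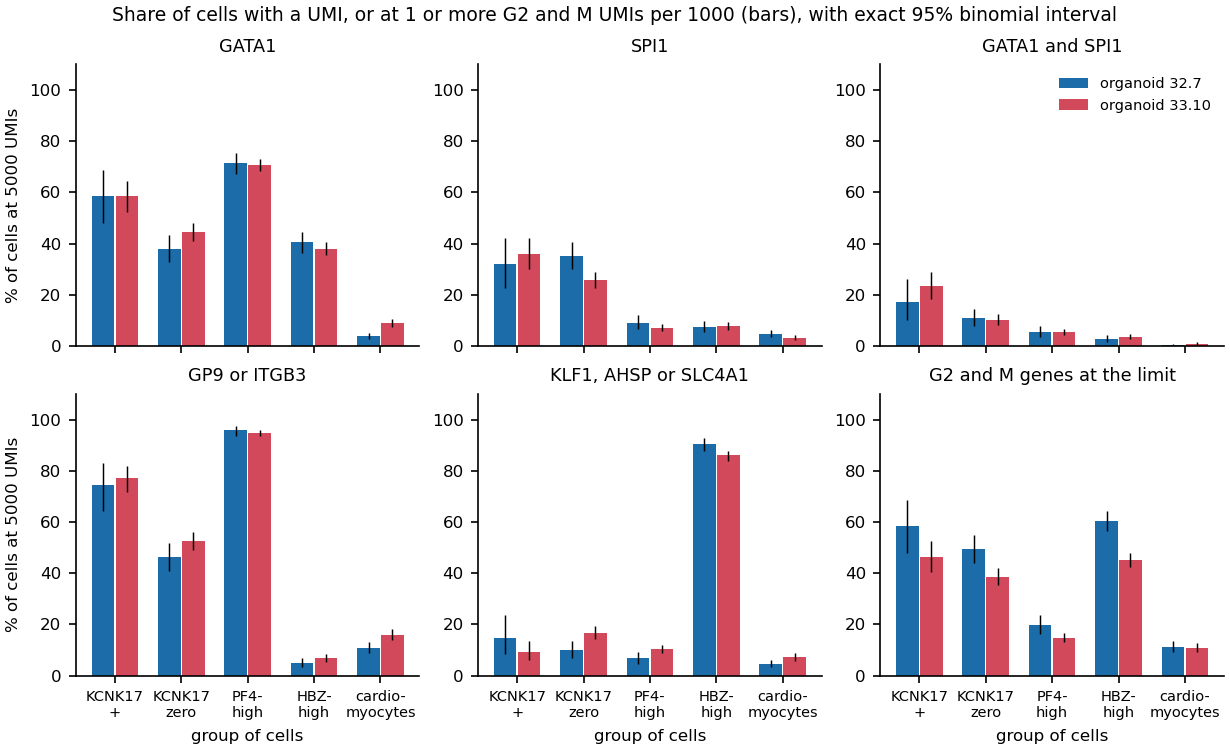
Bars give the share of cells (%) thinned to 5000 UMIs with a UMI of the named genes, or with at least 1 UMI of 22 G2 and M phase genes per 1000 UMIs (lower right), for 5 groups (x axis) in organoids 32.7 (blue) and 33.10 (red). Error bars are exact 95% binomial intervals and cover counting error only; GATA1 with SPI1 is most frequent in KCNK17+ cells, at 17.0% and 23.2%.

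Many KCNK17+ cells carried a proliferation signature. At 5000 UMIs, 58.5% and 46.4% reached 1 UMI of 22 G2 and M phase genes per 1000 UMIs, against 19.7% and 14.9% of PF4-high cells, 60.5% and 45.2% of HBZ-high cells, 49.6% and 38.5% of the counterparts and 11.3% and 11.0% of cardiomyocytes. The share is cut from a continuous score, and 12.8% and 15.7% of the KCNK17+ cells lay near the limit. MKI67, a protein of dividing cells, stood at 141 and 149 CPM against 65.9 and 53.6 in PF4-high cells, and TOP2A, which untangles DNA for mitosis, at 220 and 233 against 88.3 and 74.2. The KCNK17+ values exceeded the PF4-high values in both organoids.

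The next question was which genes set the KCNK17+ cells apart from PF4-high cells, into which they run along PF4. UMIs were summed per group and organoid, and the 8 sums of the 4 blood groups went into 1 edgeR model. Its quasi-likelihood test covered 17383 genes, with p adjusted by Benjamini-Hochberg. Cell cycle and growth genes were higher in the KCNK17+ cells. Of 22 G2 and M phase genes 20 were higher and none lower (median log2 fold change 1.22), of 22 S phase genes 19 and none (0.942), and of 14 MYC and ribosome biogenesis genes 12 and none (0.9). Of all genes tested, 9.81% were higher and 11% lower, with a median of -0.000602. With the KCNK17+ sum of organoid 32.7 left out, the 3 counts were 10, 11 and 6, and with that of organoid 33.10 left out they were 10, 13 and 5. Among cells of 5000 to 40000 UMIs in every group, which narrows the gap in depth, 17, 17 and 11 genes of the lists were higher. Of all 16843 genes tested there, 1456 were higher and 1763 lower.

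HELLS, a chromatin remodeller of replicating cells, was 2.96-fold higher than in PF4-high cells (log2 fold change 1.57, SE 0.14, edgeR adjusted p = 0.000368), and HMGA1, a chromatin protein of growing embryonic cells, was 2.50-fold higher (1.32, SE 0.16, adjusted p = 0.00119). NPM1, a nucleolar chaperone of ribosome assembly, stood at 1398 and 1231 CPM against 622 and 570 (log2 fold change 0.96, SE 0.19, adjusted p = 0.00765), and MYC at 31.3 and 23.2 against 12.3 and 11.5 (0.99, SE 0.3, adjusted p = 0.0439). MYC passed the threshold in 9 of 13 alternatives, HELLS and HMGA1 in 13 of 13.

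Transcription factors divided. Of 15 in the list 4 were higher and 6 lower than in PF4-high cells (9.81% and 11% of all genes), and 4 and 3, or 2 and 3, with the KCNK17+ sum of organoid 32.7 or 33.10 left out. MYB rose most (log2 fold change 3.76, SE 0.27, edgeR adjusted p = 0.000162), and the others higher were ERG (1.63), GATA2 (0.96) and the lymphoid and progenitor factor IKZF1 (0.84). The lower ones act in megakaryocytes and red cells: NFE2, required for platelet release, fell by 1.29 (SE 0.13, adjusted p = 0.000511), GFI1B by 1.05, TAL1 by 1.03 and GATA1 by 0.72 (SE 0.15, adjusted p = 0.0091), with ZFPM1 (-0.49) and LYL1 (-0.48) behind. FLI1, RUNX1's partner in megakaryocytes, did not pass (-0.26, adjusted p = 0.513). GATA1 did not pass in 2 of 13 alternatives, where the highest adjusted p was 0.0558.

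Of 17 granulocyte and monocyte genes tested, 5 were higher than in PF4-high cells and none lower (9.81% and 11% of all genes), and 8 and 1 with the block for organoid. SPI1 was 3.33-fold higher (log2 fold change 1.74, SE 0.28, edgeR adjusted p = 0.00352), with the factor IRF8 (2.62, at 2.30 and 1.81 CPM and under 0.05 in 7 of 13 alternatives), the receptor CSF1R (1.88), LST1 (1.2) and AIF1 (0.8). HDC, histidine decarboxylase of basophils and mast cells, stood at 40.0 and 61.9 CPM against 0.794 and 2.43 (log2 fold change 4.62, SE 0.47, adjusted p = 0.000559). HDC was not particular to the KCNK17+ cells: its level in the counterparts was nearly equal in organoid 32.7 and higher in organoid 33.10. The mast cell genes TPSAB1 and MS4A2 were at 0 UMIs in the KCNK17+ cells. TPSAB1 was at 0 and MS4A2 at no more than 7 UMIs in every other group too, so these zeros are uninformative. CPA3, of the same list, had 0 and 12 UMIs, against 109 and 145 in the larger sums of the counterparts. PRG2, an eosinophil granule protein, stood at 137 and 253 CPM against 192 and 134 in cardiomyocytes. Among the 10 largest rises over PF4-high cells of genes at 50 CPM or more in the higher group were LCP1, an actin bundler of leukocytes (2.11), SAMSN1, an adaptor of haematopoietic cells (1.71), ARHGEF6 (1.88), GAPT (2.1), LRRC7 (2) and SPI1. HPSE2 (2.86), KCNQ5 (2.46) and FREM1 (1.85) were in the same 10. Cardiomyocytes held 77.0 and 124.5 CPM of HPSE2 (96.1 and 130 in the KCNK17+ cells), 746 and 815 of KCNQ5 (117 and 120) and 213 and 243 of FREM1 (204 and 216), and the part of free RNA in these 3 differences was not tested.

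Many platelet, endothelial and erythroid genes were lower than in PF4-high cells. Of all genes tested 9.81% were higher and 11% lower than in PF4-high cells (15.6% each with the block for organoid). Of 23 erythroid genes 4 were higher and 11 lower than in these cells, which had the same HBZ limit, and 4 and 8, or 1 and 8, with the KCNK17+ sum of organoid 32.7 or 33.10 left out. That 19 of 22 megakaryocyte and platelet genes were lower and none higher (median -1.71) follows the PF4 limit that separates the groups and is a description. CCL5, a chemokine stored in platelets, stood at 22.5 and 12.5 CPM against 568 and 255 (log2 fold change -4.84, SE 0.45). At that minimum level, other genes among the largest falls were ABLIM3 (-3.93), PPBP (-3.88), PTCRA (-3.82), C19orf33 (-3.78), DENND2C (-3.7), the platelet receptor CLEC1B (-3.57), DGKG (-3.55) and PKHD1L1 (-3.42). Of 16 endothelial genes 9 were lower and none higher (11 and 1 with the block for organoid), and 5 were lower without the KCNK17+ sum of organoid 33.10. KDR, the VEGF receptor, stood at 26.2 and 14.0 against 73.8 and 103 in PF4-high cells (-2.41, SE 0.26, adjusted p = 0.000636), with cardiomyocytes at 66.8 and 64.2, and PECAM1, which platelets share with endothelium, at 116 and 140 against 253 and 251 (-1.15, SE 0.14). In all, 1706 genes were higher and 1919 lower. The block for organoid raised the count of higher genes to 2709 and of lower genes to 2704, and with the KCNK17+ sum of organoid 32.7 or 33.10 left out 2132 and 1708 genes passed in all.

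**Figure D4:**
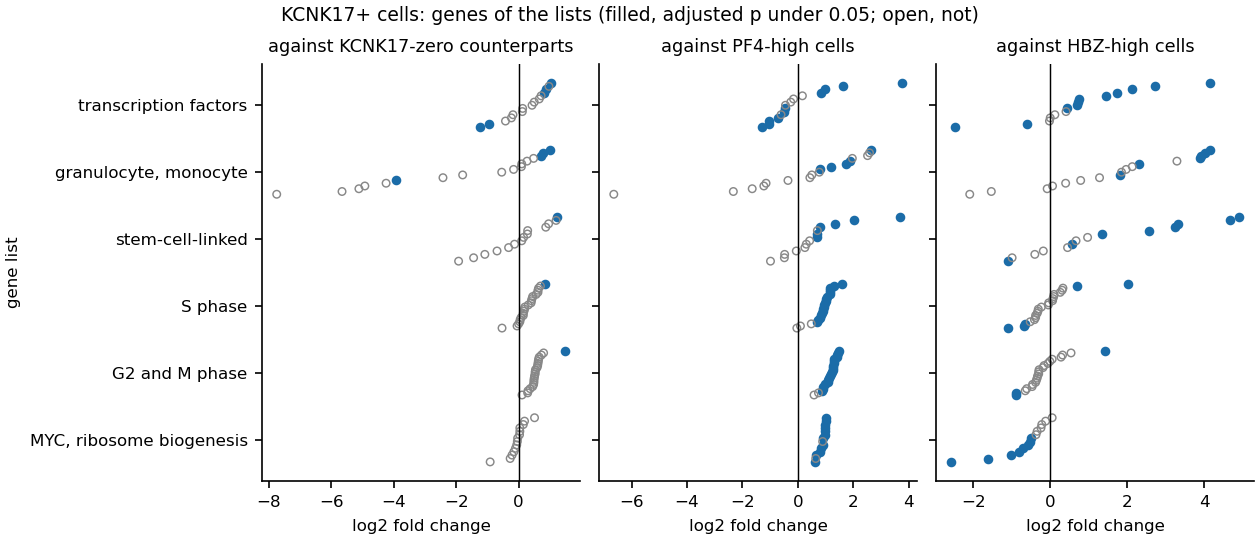
Each point is 1 gene of a list (rows), placed by the log2 fold change of KCNK17+ cells over the counterparts (left), PF4-high cells (middle) or HBZ-high cells (right); filled points have an edgeR adjusted p under 0.05 over 17383 genes. S, G2 and M phase genes lie to the right in the middle panel, where 19 and 20 of 22 passed, and around 0 in the right panel.

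Against HBZ-high cells few cell cycle genes passed without the block for organoid, and genes of the branches did. Of all genes 16.1% were higher and 14.4% lower than in these cells, and 20.1% and 19.5% with the block. Of 22 S phase genes 2 were higher and 3 lower, and 4 and 8 with the block. Of 22 G2 and M phase genes 1 was higher and 2 lower, and 2 and 6 with the block. With the KCNK17+ sum of organoid 32.7 left out these were 1 and 2, and 1 and 0, and with that of organoid 33.10 left out 2 and 0, and 1 and 1. MKI67 stood at 141 and 149 CPM against 112 and 69.1 (log2 fold change 0.28, SE 0.24, edgeR adjusted p = 0.422). Of 14 MYC and ribosome biogenesis genes 8 were lower and none higher, and 4 or 5 were lower with the KCNK17+ sum of organoid 32.7 or 33.10 left out. MYC stood at 31.3 and 23.2 against 149 and 90.8 (-2.58, SE 0.28, adjusted p = 0.000173), and FBL, a methyltransferase of ribosomal RNA, at 90.2 and 88.2 against 213 and 200 (-1.62, SE 0.14, adjusted p = 4.68e-05). That 20 of 23 erythroid genes were lower and 21 of 22 megakaryocyte genes higher follows from the HBZ limit and the ITGA2B minimum and is a description.

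Among the transcription factors 9 of 15 were higher than in HBZ-high cells and 2 lower, where 16.1% and 14.4% of all genes were. With the KCNK17+ sum of organoid 32.7 left out 8 were higher and 1 lower, and with that of organoid 33.10 left out 6 and 2. The higher ones included FLI1 (log2 fold change 4.14, SE 0.29, edgeR adjusted p = 1.81e-05), ETV6, a repressor needed for platelet formation (2.72, SE 0.17), CBFA2T3 (1.74), ERG (1.44), LYL1 (0.75), GFI1B (0.73), GATA2 (0.7) and ZFPM1 (0.44). LMO2, a bridging factor of the erythroid GATA1 complex, stood at 92.5 and 115 CPM against 443 and 425 (-2.47, SE 0.17, adjusted p = 1.59e-05), and IKZF1 was also lower (-0.61). GATA1 itself did not pass (0.41, SE 0.15, adjusted p = 0.0639), though it did with the block for organoid (adjusted p = 0.0255). MYB did not differ in a fixed direction (-0.02, SE 0.22, adjusted p = 0.953).

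Immune signalling genes, some of them also abundant in PF4-high cells, were among those higher than in HBZ-high cells. TYROBP was 17.7-fold higher than in HBZ-high cells (log2 fold change 4.15, SE 0.15, edgeR adjusted p = 3.28e-06) and AIF1 14.8-fold higher (3.89, SE 0.17). PF4-high cells also held more TYROBP than HBZ-high cells in both organoids, and TYROBP did not pass between KCNK17+ and PF4-high cells. FCER1G, of the same list, was higher in PF4-high cells than in KCNK17+ cells in both organoids. In the list of granulocyte and monocyte genes 6 of 17 were higher and none lower, where 16.1% and 14.4% of all genes were. Of the 10 largest rises at 50 CPM or more, PLEK (5.25), MMRN1 (5.11) and RAB27B (4.91) serve platelet signalling, adhesion and granules, and LCP2 (4.86) and FYB1 (4.84) act below immune receptors. LCP2 stood at 172 and 186 CPM against 3.28 and 5.77, and FYB1 at 259 and 295 against 4.81 and 9.54. Their levels in PF4-high cells are not reported here, so these rises do not separate an immune trait from one shared with those cells. P2RY14, a receptor for nucleotide sugars on early progenitors, stood at 53.8 and 51.7 against 1.12 and 2.04 (4.58, SE 0.28). GRIK4 and the collagen COL24A1 (4.79) were in the same set, as was ANGPT1, the ligand of TEK, at 435 and 521 against 5.61 and 15.8 (5.04, SE 0.39), with 246 and 225 in cardiomyocytes. TEK, its receptor, was also higher (27.1 and 39.2 against 3.20 and 6.79, log2 fold change 2.32, SE 0.39, adjusted p = 0.002).

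The largest falls at that level against HBZ-high cells included red cell genes. PKLR, the pyruvate kinase of red cells, had 0 UMIs in the KCNK17+ cells and 97.1 and 86.1 CPM in HBZ-high cells, at least 70-fold and 158-fold lower when 3 UMIs per organoid are taken as the floor. AHSP stood at 1.84 and 2.72 against 638 and 696 and HBA2 at 97.1 and 99.2 against 4416 and 4886, though reads of HBA2 and the near-identical HBA1 may be divided between them. The metallothionein MT1X, which binds zinc, stood at 6.44 and 6.35 against 112 and 225 (log2 fold change -5.12, SE 0.51, edgeR adjusted p = 0.000106). The others were SLC4A1, C17orf99, MT1G, FAM83A, ADAMTS19 and TLCD4 (log2 fold changes of -5.82 or lower). In all, 2802 genes were higher and 2503 lower, and with the KCNK17+ sum of organoid 32.7 left out 2232 were higher and 1687 lower, and with that of organoid 33.10 left out 1797 and 1400.

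The KCNK17-zero counterparts showed how far a KCNK17 UMI itself singles out cells under an otherwise equal rule. Here 245 genes were higher in the KCNK17+ cells and 323 lower, 1.41% and 1.86% of those tested. This comparison moved with the settings more than the others. The block for organoid gave 1353 higher and 1139 lower (7.78% and 6.55%), the wider cell filter of the study gave 7 and 6, and 7 or 1 genes passed in all when the KCNK17+ sum of organoid 32.7 or 33.10 was left out. The counterparts also held genes of other blood lines: PRG2 stood at 3543 and 2017 CPM against 137 and 253 in the KCNK17+ cells, and MPO at 751 and 60.9 against 18.9 and 6.17, and they were shallower. The part of these cells, and of the depth that makes a KCNK17 UMI more likely to be seen, was not tested.

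Of 15 transcription factors 3 were higher than in the counterparts and 2 lower, and 8 and 2 with the block for organoid. The shares of all genes were 1.41% and 1.86%, and 7.78% and 6.55% with the block. GATA1 stood at 188 and 195 CPM against 98.4 and 133 (log2 fold change 0.88, SE 0.15, edgeR adjusted p = 0.0256), GFI1B at 92.0 and 102 against 46.2 and 59.3 (1.03, SE 0.16, adjusted p = 0.0222) and ZFPM1, the cofactor of GATA1, at 64.9 and 62.4 against 39.4 and 41.5 (0.8, SE 0.12, adjusted p = 0.0222). LMO2 did not lie higher (92.5 and 115 against 137 and 125). Lower were MYB (33.1 and 43.7 against 98.5 and 69.3, log2 fold change -0.96, SE 0.22, adjusted p = 0.0489) and ERG (-1.23). Of 22 megakaryocyte and platelet genes PLEK alone passed without the block (1.53, SE 0.3, adjusted p = 0.0365) and 10 with it, none lower. GP9 stood at 281 and 282 against 142 and 143 (1.12, SE 0.26, adjusted p = 0.0551, and 0.0126 with the block). Of the 22 G2 and M phase genes 1 passed without the block and 16 with it, and of the S phase genes 1 and 8, none lower.

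Among genes at 50 CPM or more in the higher group, the largest rises over the counterparts were in GRIK4, a kainate receptor subunit (58.9 and 76.2 against 12.9 and 24.3 CPM, log2 fold change 2, SE 0.27, edgeR adjusted p = 0.0197), the cation channel TRPC6 (90.6 and 103 against 26.8 and 38.2, log2 fold change 1.72, SE 0.22), CD2 (1.64), PLEK, CDKN2D, an inhibitor of cyclin-dependent kinases (1.53), SLC37A1 (1.49), UBE2C (1.49), TMEM163 (1.48), the gap junction gene GJA4 (166 and 165 against 62.6 and 69.9, log2 fold change 1.47, SE 0.12, adjusted p = 0.00967) and HBD (1.46). The cardiomyocytes held more TMEM163 (200 and 242 CPM) than either group. GJA4 passed in 12 of 13 alternatives. At the same minimum level SPP1, a macrophage and matrix protein, fell most (6.44 and 0.907 against 87.7 and 110, log2 fold change -5.08, SE 0.86, adjusted p = 0.0256), followed by ACSM3 (-3.22), PLPP1 (-2.29), KDR (26.2 and 14.0 against 78.3 and 90.3, log2 fold change -2.02, SE 0.26, adjusted p = 0.0197), IKZF2 (-2), RELN (-1.75), FLT1 (-1.74), HBA2 (-1.69), TENT5A and LDB2 (-1.67 each). Of 17 granulocyte and monocyte genes 3 were higher and 1 lower (1.41% and 1.86% of all genes), but 4 and 6 with the block (7.78% and 6.55%). Without it AIF1 (0.99), FCER1G (0.78) and TYROBP (0.71) were higher and CEBPA, a granulocyte factor, lower (-3.92, SE 0.55, adjusted p = 0.0197). SPI1 stood at 87.9 and 77.3 against 124 and 78.4, so that the values of organoid 33.10 were all but equal, and did not pass (-0.16, SE 0.27, adjusted p = 0.796).

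Genes linked to stem cells were partly present. HLF, HOXA9 and SPINK2, markers of the definitive stem cell program, were too low in every group to be tested. MECOM stood at 70.8 and 57.1 CPM, above PF4-high and HBZ-high cells in both organoids but below the 130 and 145 of cardiomyocytes. Its level in the counterparts was nearly equal in organoid 32.7 and higher in organoid 33.10. CD34 stood at 38.6 and 24.7 against 22.9 and 17.9 in PF4-high cells and 4.65 and 3.33 in HBZ-high cells (log2 fold change 2.57 over the latter, SE 0.3, edgeR adjusted p = 0.000267). SPN (CD43), an early marker of committed blood cells, stood at 109 and 118 against 39.7 and 38.9 in PF4-high cells (1.35, SE 0.14, adjusted p = 0.000599), and MYCN, a transcription factor of growing embryonic cells, at 26.7 and 33.7 against 0.721 and 1.02 in HBZ-high cells (4.68, SE 0.27, adjusted p = 7.86e-06). The counterparts held SPN at a nearly equal level in organoid 32.7 and a lower one in organoid 33.10. Of 14 tested genes of this list 6 were higher and none lower than in PF4-high cells, and 7 and 1 against HBZ-high cells. Of 11 tested surface and enzyme markers of megakaryocyte-erythroid progenitors 4 were higher and 2 lower in each of these comparisons. Of all genes 9.81% and 11% were against PF4-high cells, and 16.1% and 14.4% against HBZ-high cells. Against HBZ-high cells the marker list had a median log2 fold change of 0.6. That median was -0.052 or 0.502 with the KCNK17+ sum of organoid 32.7 or 33.10 left out. Against PF4-high cells the list of stem cell genes had 2 lower with the block, and with the KCNK17+ sum of organoid 32.7 or 33.10 left out it had 2 higher either way and the marker list 3 or 1. GMPR, an enzyme of purine metabolism, stood at 296 and 379, 2.01-fold above the counterparts (1.01, SE 0.21, adjusted p = 0.0412), and CYTL1, a secreted protein of CD34+ cells, at 61.6 and 42.3 against 16.8 and 18.8 in PF4-high cells (1.33, SE 0.2, adjusted p = 0.00259). CYTL1 in the counterparts lay between the KCNK17+ and PF4-high values in both organoids.

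Of the receptors for the cytokines and growth factors added to the cultures, 16 were tested. Against HBZ-high cells 3 were higher and 2 lower, where 16.1% and 14.4% of all genes were. Against PF4-high cells none were higher and 7 lower, where 9.81% and 11% of all genes were, and 4 or 3 were lower with the KCNK17+ sum of organoid 32.7 or 33.10 left out. The 7 were KDR (-2.41), KIT (-1.85, SE 0.32, edgeR adjusted p = 0.00476), PTCH1 (-1.25), FLT1 (-1.07), IL6ST (-1.04), EPOR (-0.88) and IGF1R (-0.57). For FLT1 (39.3 and 50.7 CPM) and PTCH1 (10.5 and 11.9) the PF4-high cells themselves lay below the cardiomyocytes (83.4 and 89.3 for FLT1, 13.7 and 12.8 for PTCH1). FLT3 was too low to be tested.

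Of other potassium channel genes few were abundant in the KCNK17+ cells. KCNQ5 stood at 117 and 120 CPM, below the cardiomyocytes as given above. Of 14 other tandem pore channel genes 5 were high enough to be tested, and KCNK6 (TWIK2) alone exceeded 10 CPM in the KCNK17+ cells, at 78.2 and 84.5. It stood at 125 and 116 in PF4-high cells (log2 fold change -0.74, SE 0.16, edgeR adjusted p = 0.012), 14.3 and 12.6 in HBZ-high cells (2.21, SE 0.17, adjusted p = 2.88e-05) and 15.5 and 24.0 in cardiomyocytes. KCNH2, the ERG1 channel gene, stood at 8.28 and 10.7 against 88.9 and 77.5 in HBZ-high cells (-3.49, SE 0.22, adjusted p = 1.2e-05) and 44.2 and 44.8 in cardiomyocytes. KCNE3, an auxiliary subunit, stood at 35.4 and 42.3 against 55.0 and 60.8 in PF4-high cells (-0.74) and 10.8 and 12.7 in HBZ-high cells (1.33). KCNK17 and KCNK6 therefore stood in opposite order between the KCNK17+ and PF4-high cells, the former by construction.

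The 9 genes of the embryonic and fetal program summed to 1124 and 1129 CPM in the KCNK17+ cells, against 1174 and 1234 in cardiomyocytes. LIN28B stood at 93.8 and 123, between 67.7 and 132 in the other blood groups and not above the cardiomyocytes (108 and 125). LIN28A, its paralogue, was higher than in the counterparts (22.1 and 26.9 against 12.6 and 13.6, log2 fold change 1.07, SE 0.18, edgeR adjusted p = 0.0256), and HMGA2 lower (24.4 and 27.2 against 71.7 and 86.2, log2 fold change -1.45, SE 0.18, adjusted p = 0.0197), though near its level in PF4-high cells (22.9 and 25.6). Cardiomyocytes held 7.45 and 7.29 CPM of LIN28A and 102 and 83.6 of HMGA2.

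The KCNK17+ cells varied among themselves in their level of megakaryocyte genes. The summed level of the 22 megakaryocyte and platelet genes ran from 273 to 23870 CPM in organoid 32.7, with a median of 5127, and from 47.1 to 21320 in organoid 33.10, with a median of 4752. Across cells it went with PF4 (Spearman rho 0.711 over 97 cells and 0.72 over 280). PF4 is not in that list, but its limit helped to choose the cells, so this is a description. The summed level showed next to no relation to the summed G2 and M genes (0.0213 and 0.0201) or to SPI1 (-0.0964 and -0.125). These points share a library and their cell's depth. The 82 and 237 cells with a GATA1 UMI were deeper (median 23314 and 18912 UMIs) than the 15 and 43 without (12908 and 11553) and held more GP9 (296 and 299 CPM against 136 and 146), PLEK (1142 and 1257 against 660 and 583) and MKI67 (151 and 156 against 46.8 and 98.3). SPI1 was 87.2 and 74.3 in the former and 93.6 and 102 in the latter, and the gap in depth goes with the split. Markers of other cell types also went with it. In the cells without a GATA1 UMI C1QA stood at 299 and 73.7 CPM against 55.6 and 1.22, and COL3A1, a collagen of mesenchyme, at 407 and 346 against 167 and 89.2. In organoid 33.10 they held 576 CPM of CLC against 1.22 and 1430 of PRG2 against 106. The part of these markers in the split was not tested. Between organoids the cells were close: of 168 list genes that reached 20 CPM in either, 145 were within 1.5-fold and 9 differed by more than 2-fold, led by CD14 (51.5 and 0.726), CLC (3.22 and 65.0), C1QA (79.6 and 9.25) and LUM (87.4 and 19.1).

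CD14, CLC and C1QA came from few cells: the 3 highest held 77.7% of CD14 UMIs in organoid 32.7, 98.9% of CLC UMIs in organoid 33.10, and 64.7% and 98.0% of C1QA UMIs. At least 10 UMIs of C1QA, LYZ, CLC, MPO, COL1A1 or TNNT2, which mark macrophages, granulocytes, mesenchyme and cardiomyocytes, were found in 17 of 97 and 31 of 280 KCNK17+ cells. A single cell of organoid 33.10 held 352 CLC UMIs. The doublet caller Scrublet placed 21.7% and 13.6% of the KCNK17+ cells among its highest doublet scores, against 14.1% and 16.3% of all barcodes. Without the cells with such UMIs, in every group, 329 KCNK17+ cells remained. Then 20, 21 and 13 genes of the S phase, G2 and M phase, and MYC and ribosome lists were higher than in PF4-high cells. Of all 16504 genes tested there, 2252 were higher and 2340 lower.

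Summed cardiomyocyte, mesenchymal and endoderm markers were lower in the KCNK17+ cells than in cardiomyocytes, while summed endothelial markers were higher. The 10 cardiomyocyte genes summed to 181 and 271 CPM, led by TNNT2, against 25030 and 20490 in cardiomyocytes. The 12 mesenchymal and epicardial genes, led by COL3A1, summed to 631 and 402 CPM, below the 1007 and 834 found in cardiomyocytes. They summed to 383.9 and 381.2 in PF4-high cells, 301.8 and 271.3 in HBZ-high cells and 774.5 and 700.2 in the counterparts. The 8 endoderm and liver genes summed to 43.7 and 6.35 against 88.4 and 36.0 in cardiomyocytes. The 13 early lymphoid genes summed to 56.6 and 33.4 against 37.3 and 34.1 in cardiomyocytes, where BCL11A, a repressor of fetal globin, made up 29.8 and 27.3. CD7, a membrane protein of T cells and early progenitors, stood at 15.6 and 10.5 against 1.04 and 1.57, and LTB, lymphotoxin beta, at 19.8 and 7.62 against 2.75 and 1.83. Both thus exceeded the cardiomyocytes in both organoids, while BCL11A (9.66 and 10.3) did not. The 16 endothelial genes summed to 862 and 789, led by EGFL7, against 279 and 340 in cardiomyocytes and 1454 and 1367 in PF4-high cells.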

How the data were processed

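Droplet libraries (1 per BG-HFO, day 14) were deposited by the authors as raw UMI counts of 36601 genes per barcode, made with Cell Ranger 7.0.0 on GRCh38 with intronic reads included. These deposited counts precede the depth equalization, ambient RNA removal and cell filter (50 to 11000 genes, under 30% mitochondrial) that the study describes. They were used as they are, with totals of 191152562 and 233818881 UMIs.

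Cells were grouped by the rule on raw counts, with the members, gene lists and comparison groups chosen with earlier results of these data known. UMIs were summed per group and organoid (8 sums) and fitted with edgeR 4.0.16 in R 4.3.3 (TMM, filterByExpr, quasi-likelihood test, group only, Benjamini-Hochberg over 17383 genes, threshold 0.05). The 7 genes of the rule got no test. Cells share an organoid and are not replicates, so 2 organoids a group carry every p-value, and their spread may be partly technical. Depth differed between groups, as given with the results. The organoid number pairs the sums, since same-numbered sums come from 1 organoid: their deviations correlated at 0.29, 0.186 and 0.138 between KCNK17+ cells and counterparts, PF4-high and HBZ-high cells. The blocked fit was an alternative. Each SE is the log2 fold change divided by the square root of F.

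Genes named were those of the lists with the highest level in the KCNK17+ cells or named by the label, the 7 genes of the rule, and per comparison the 10 largest changes in each direction among genes past the threshold, in 1 direction in both organoids and at 50 CPM or more in the higher group, without clone, LINC, mitochondrial or antisense symbols. Genes outside this rule were named after their values were seen, and some genes that meet it are not reported here.

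For shares, cells were thinned to 5000 UMIs, and exact binomial intervals (95%) cover counting error only. Scrublet (in scanpy 1.11.5) at its own threshold marked 0.0% of organoid 32.7, where it had not worked, and 19.11% of organoid 33.10. The highest scores were therefore used, at 0.8% per 1000 barcodes, and doublets were kept. On simulated data of 17383 genes, the fit recovered 22, 28 and 45 of 100 genes changed by 1 on the log2 scale and 62, 72 and 73 of 100 changed by 2, against counterparts, PF4-high and HBZ-high cells in turn. Unchanged genes made up 6.67%, 8.26% and 11.9% of those calls.

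Alternatives were RLE size factors, DESeq2 1.42.0, no filter on low counts, the block, other limits on depth, cells, KCNK17, PF4 and HBZ, removal of Scrublet's highest scores or of 10% of the all-barcode profile, and left-out organoids. Leaving out a single KCNK17+ sum and cells with UMIs of other types was chosen after seeing the data. In those left-out fits the lone KCNK17+ sum is assumed to vary like the other groups.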

Additional observations from a re-analysis of the deposited data

Results flagged for a closer look

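KCNK17 also appeared in cells outside the comparisons: barcodes with KCNK17 and RUNX1 but no ITGA2B or CDH5 UMI, 80 in organoid 32.7 and 35 in organoid 33.10. They stood out because a gene unrelated to blood stood above its level in all filtered barcodes. NGFR, a neurotrophin receptor found on mesenchymal and mural cells, stood at 410.9 and 251.5 CPM against 31.9 and 15.7 in all filtered barcodes. GATA1 stood there at 5.56 and 25.8 against 36.35 and 72.36, and GP9 at 4.45 and 0 against 62.02 and 115.8. SPI1 (30.58 and 10.61 against 47.03 and 25.77) and PTPRC (27.8 and 1.515 against 55.26 and 22.81) were also below all filtered barcodes.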

How the results depend on the processing

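The comparison with the KCNK17-zero counterparts depended most on the settings. Its 568 genes became 855 with DESeq2, 2095 without the filter on low counts, 2492 with the block for organoid, 1617 without the highest Scrublet scores, 154 after removal of 10% of the all-barcode profile, 1226 with at least 2 KCNK17 UMIs, 13 with the study's cell filter, 970 without cells holding UMIs of other cell types, and 1 to 7 when a KCNK17+ sum was left out. The cause was not tested, other than that the last has fewer samples. The share of higher genes, 43.1%, was 32.6% without the filter, 54.3% with the block and 53.8% with the study's cell filter. With a KCNK17+ sum left out, 3625 genes against PF4-high cells became 1708 to 2132, and 5305 against HBZ-high cells became 3197 without organoid 33.10, or 2232 higher and 1687 lower without organoid 32.7. In the other alternatives these 2 counts stayed within 1.5-fold. For the gene lists counted in the text, blocked counts that moved by more are given there.

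The rule found 244 cells with the lower PF4 and HBZ limits and 210 with at least 2 KCNK17 UMIs. The mean share with GATA1, 58.5%, was 84.6% unthinned, 40.4% at 3000 UMIs, 61.0% without the highest Scrublet scores, 59.6% with at least 2 KCNK17 UMIs and 56.5% with the lower limits. MYB against HBZ-high cells, which did not pass (-0.02), turned to 0.01 with the block, 0.03 without the highest Scrublet scores, 0.51 with the lower limits, 0.01 with the study's cell filter, 0.07 without cells holding other UMIs and 0.13 without the KCNK17+ sum of organoid 32.7, and ran from -0.3 to 0.17 within a single organoid. SPI1 against the counterparts, which did not pass (-0.16), turned to 0.17 without cells holding other UMIs. Of 95 results for single genes, 35 and 38 no longer passed with the KCNK17+ sum of organoid 32.7 or 33.10 left out, 23 with the study's cell filter and 17 after removal of the profile.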

Other observations

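The KCNK17+ RUNX1+ barcodes without ITGA2B held median UMI counts of 21575 and 19257, against 8496.5 and 8407 in all filtered barcodes, so a UMI of a sparse gene was found in deep barcodes here too. KCNK17 stood at 137 and 90.9 CPM. Some genes, named after their values were seen, stood above all filtered barcodes. SULF1, an enzyme that trims heparan sulfate, was at 722 and 412 against 42.0 and 27.9. CNTN4, a neural adhesion molecule, was at 1312 and 1053 against 113 and 55.6. PDGFRB, the receptor of mural cells and fibroblasts, was at 240 and 212 against 27.2 and 25.1. COL1A1 stood at 1300 and 979 against 435 and 338. KCNK17 and RUNX1 were part of the choice of these barcodes, and no test was made.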
